A study of Caenorhabditis elegans with 6 samples.

Results

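The asp genes of Caenorhabditis elegans encode aspartyl proteases of the pepsin family. The 10 genes described here are asp-1, asp-2, asp-3, asp-4, asp-5, asp-6, asp-8, asp-12, asp-13 and asp-14, taken by gene name from the 22416 genes with counts. They were selected on earlier results of these same libraries, namely their CPM and their log2 fold change between the treatments, so their values in that comparison are given as a description. The name series holds 9 further genes, counting hrg-7 (also called asp-10), which are given separately. All 10 members passed the filter on low counts, as did 15519 genes in all.

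Aspartyl proteases of this kind cut proteins in acid compartments with a pair of catalytic aspartates. In animals they work in lysosomes, as cathepsin D does, or in the gut lumen, as pepsin does. In C. elegans, whose intestine both digests bacteria and holds many lysosome-related organelles, asp-3 and asp-4 are lysosomal proteases that act downstream of calpains in the necrotic death of neurons. asp-1 is made in intestinal cells and is required for the necrosis caused by a bacterial pore-forming toxin. The remaining members are known mainly by their peptidase domain.

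RNA came from pools of whole worms of strain CL2006, which carries pCL12, a minigene that makes human Abeta peptide under the unc-54 promoter of body wall muscle, with the marker plasmid pRF4. The treated worms ate HT115 bacteria expressing RNAi against the 3'UTR of gtr-1, a G protein-coupled receptor. The control worms ate HT115 bacteria with an empty vector (EV). All worms of both groups carried both transgenes, had parents on the same bacteria, were kept at 20 °C and were collected on day 6 of adulthood. Each treatment has 3 libraries, 1 in each of batches 2, 3 and 4. The labels number the batches and do not say what a batch is or whether its worms were grown separately, so p-values measure only the spread between these libraries, which may be partly technical.

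Library totals ran from 43067539 to 59812227 counts. The RNAi target was not lower in libraries with the gtr-1 RNAi label: gtr-1 had 38, 26 and 11 counts there in batches 2, 3 and 4, against 32, 16 and 12 counts with the empty vector. Each direction below therefore rests on the label. Markers of intestine, muscle, hypodermis, neurons, germline, sperm and coelomocytes were all detected, and none of the marker genes listed had 0 counts throughout. In whole worms, fewer cells of a type and less RNA per cell cannot be told apart.

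The members spanned a wide range of abundance. Levels are given as CPM (the count as a share of the scaled library total, on the usual CPM scale), divided by exon length where genes are compared (CPM per kb). asp-6 was the most abundant, at 1860.2 ± 148 CPM per kb in libraries with the gtr-1 RNAi label and 1124 ± 178 CPM per kb with the empty vector (SD, n = 3 each). With the empty vector this was rank 98 of 14948 protein-coding genes by level per kb. asp-1 followed, at 1155 ± 270 CPM per kb with the gtr-1 RNAi label and 791 ± 281 CPM per kb with the empty vector.

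The next places were close to each other. asp-5 had 826 ± 68.2 CPM per kb with the gtr-1 RNAi label and 404 ± 18.4 with the empty vector, and asp-3 had 614 ± 44.5 and 526 ± 12.8 in the same order of groups (SD, n = 3 each). asp-5 stood above asp-3 in the 3 libraries labelled gtr-1 RNAi and below it in the 3 empty vector libraries, so their order depended on the treatment. asp-4 lay at 258 ± 11.4 with the gtr-1 RNAi label and 243 ± 76.1 CPM per kb with the empty vector, and asp-2 at 214 ± 34.3 and 132 ± 23.3. asp-4 was above asp-2 in 5 of 6 libraries, and the ranges of these neighbours overlapped.

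The lower members were asp-13, asp-14, asp-12 and asp-8. asp-13 had 50.9 ± 6.10 CPM per kb with the gtr-1 RNAi label and 44.5 ± 20.5 with the empty vector. asp-14 had 25.2 ± 8.92 and 48.9 ± 19.6, asp-12 had 17.9 ± 5.66 and 8.90 ± 2.61, and asp-8 had 6.54 ± 6.01 and 4.77 ± 4.78, in the same order of groups (CPM per kb, SD, n = 3 each). asp-13 exceeded asp-14 in 4 of 6 libraries, namely the 3 labelled gtr-1 RNAi and the batch 2 empty vector library. asp-12 exceeded asp-8 in 4 of 6, those of batches 3 and 4, and lay below it in both batch 2 libraries. The order of these neighbours thus depended on the library. In contrast asp-3 was above asp-4, and asp-2 above asp-13, with no overlap over the 6 libraries. The highest and lowest member means differed 264-fold.

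**Figure D1:**
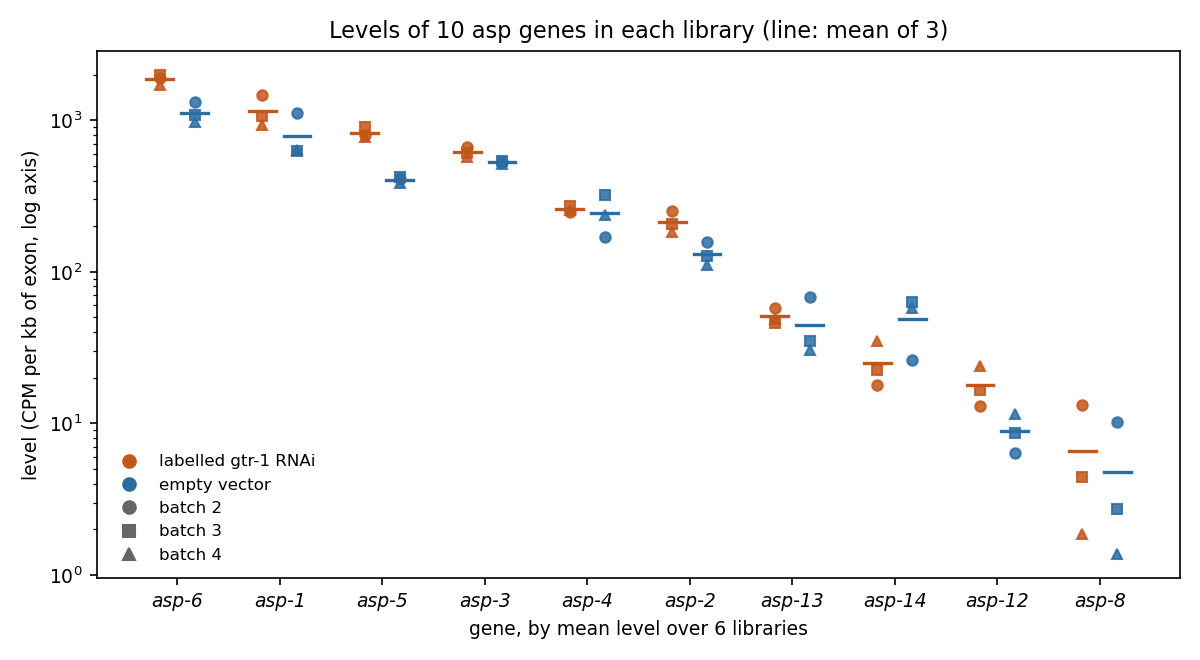
Level of each of the 10 asp genes (CPM per kb of exon, log axis) in the 6 libraries, with libraries labelled gtr-1 RNAi on the left of each gene and empty vector libraries on the right; marker shapes are batches and lines are means of 3. asp-6 lies at 967 to 1995 and asp-8 at 1.38 to 13.3, and the groups of asp-5 are apart while those of asp-4 overlap.

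Together the 10 genes took 0.754, 0.620 and 0.556% of all counts in libraries with the gtr-1 RNAi label of batches 2, 3 and 4, against 0.538, 0.402 and 0.375% with the empty vector. The group means were 0.643 ± 0.101% with the gtr-1 RNAi label and 0.438 ± 0.0872% with the empty vector (SD, n = 3 each). In each batch the share was higher with the gtr-1 RNAi label, by 0.216, 0.217 and 0.181 percentage points, but the lowest such library (batch 4) lay close to the highest empty vector library (batch 2). Most of these reads were from asp-6, asp-1, asp-3 and asp-5, which made up 87.0 to 88.0% of the family's counts with the gtr-1 RNAi label and 81.5 to 87.7% with the empty vector.

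Between treatments most members were higher in libraries with the gtr-1 RNAi label, by up to about 2-fold, and asp-14 was lower. Since the genes were picked with these values known, no test of the list is drawn from what follows. The median log2 fold change of the 10 members was 0.54, against -0.03 over all genes tested. The fitted value was above 0 for 9 of 10 members, beside 41.6% of all genes. By batch pair the members' median was 0.45, 0.70 and 0.62 in batches 2, 3 and 4. At an edgeR adjusted p under 0.05 over all genes, 3 of 10 members were called higher (asp-5, asp-12 and asp-2), beside 0.0902% of all genes, and 0 of 10 lower, beside 0% of all genes. At an unadjusted p under 0.05 edgeR gave 7 members higher and 1 lower, beside 4.99% and 5.68% of all genes. DESeq2 called 6 members higher (asp-1, asp-2, asp-3, asp-5, asp-6 and asp-12), beside 1.57%, and 0 lower, beside 0.625%. A member was higher in all 3 batch pairs in 7 of 10 cases, beside 13.5% of all genes, and lower in all 3 in 1 case, beside 22.6%. The count of called members changed with the libraries in the fit, as did that of all genes. Without the batch 2 pair 8 members were called (7 higher, and asp-14 lower), beside 745 genes higher and 420 lower of 15147. Without the batch 3 pair 5 were called (4 higher, and asp-14 lower), beside 170 genes higher and 81 lower of 16177. Without the batch 4 pair 0 were called, beside 0 genes of 16134. At an unadjusted p under 0.05 that fit gave 7 members higher and 1 lower, beside 493 genes higher and 355 lower. Leaving out either batch 2 library gave 7 members, asp-14 again lower. Over all genes 810 of 15673 were called without the library labelled gtr-1 RNAi and 1019 of 15597 without the empty vector library. Leaving out either batch 3 library gave 1 member, namely asp-5, beside 12 and 9 genes in the same order. Leaving out either batch 4 library gave 0 members, beside 0 genes. With a minimum count of 50, 2 members were called, asp-12 no longer being called, beside 6 genes of 12185. Without the batch as a block 0 members were called, beside 1 gene. Before adjustment, at p under 0.05, that fit gave 4 members higher and 1 lower, beside 231 genes higher and 157 lower of 15519.

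**Figure D2:**
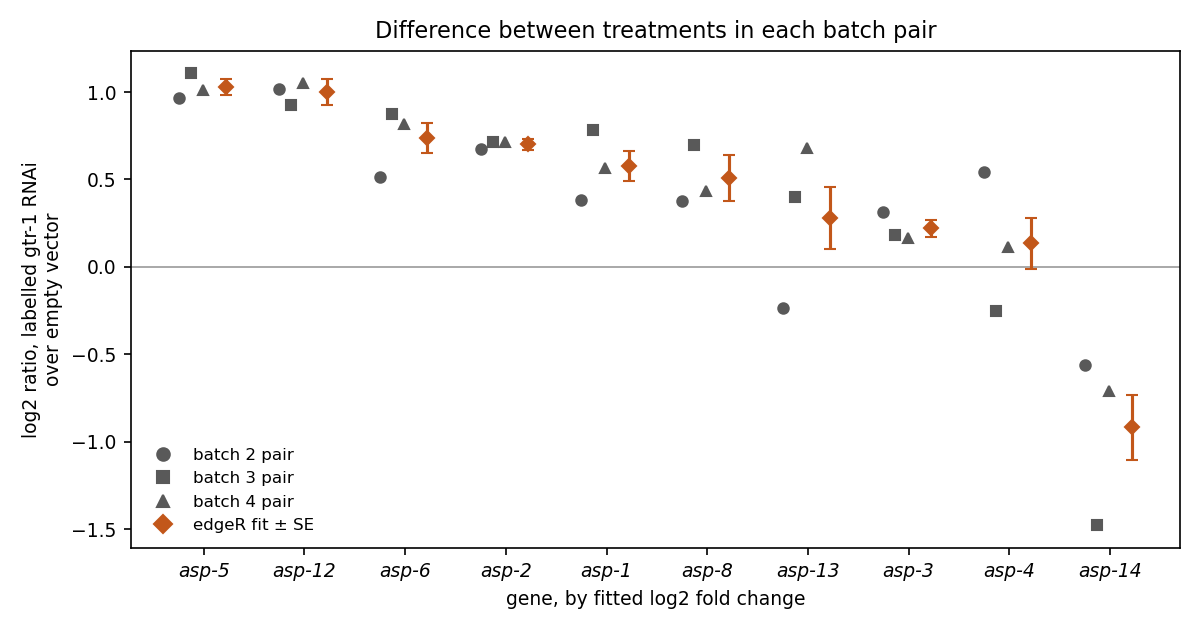
Log2 ratio of the library labelled gtr-1 RNAi over the empty vector library in each batch pair (grey; shapes are batches) and the edgeR log2 fold change with its SE (orange), genes ordered by the fit. The 3 pairs of asp-5, asp-12 and asp-2 lie close together, those of asp-13 and asp-4 fall on both sides of 0, and those of asp-14 are all below 0.

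asp-5 (WBGene00000218) had 993, 1119.9 and 959 CPM in libraries with the gtr-1 RNAi label of batches 2, 3 and 4, against 508, 520.0 and 476 CPM with the empty vector. Its groups did not overlap, and every library labelled gtr-1 RNAi held close to 2 times the level of its partner. The log2 fold change was 1.03 ± 0.05 (SE), with pair values of 0.97, 1.11 and 1.01.

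asp-12 (WBGene00017678), its upstream neighbour, was far less abundant per kb and differed by nearly the same factor. It had 18.1, 23.0 and 33.5 CPM with the gtr-1 RNAi label, against 8.92, 12.1 and 16.2 CPM with the empty vector. The groups did not overlap, although the highest empty vector library, that of batch 4, came close to the lowest library labelled gtr-1 RNAi, that of batch 2. The log2 fold change was 1.00 ± 0.08 (SE), and the pair values of 1.02, 0.93 and 1.05 were close to each other.

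asp-2 (WBGene00000215) had 346, 287 and 253 CPM with the gtr-1 RNAi label, against 217, 175 and 154 CPM with the empty vector. The groups did not overlap. Its log2 fold change was 0.70 ± 0.03 (SE), and its pair values of 0.67, 0.71 and 0.71 were the closest together of any member, with an SD of 0.02. The annotation places 74 bases of inx-10, on the other strand, over 5.36% of the exon length of asp-2, and whether the counting used the strand remains not given in the sources used here.

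asp-6 (WBGene00000219) had 2402, 2543 and 2170.0 CPM with the gtr-1 RNAi label, against 1680.2, 1385 and 1233 CPM with the empty vector. The groups did not overlap, and the log2 fold change was 0.74 ± 0.09 (SE). The batch 2 pair stood lower, at 0.52, than the pairs of batches 3 and 4, at 0.88 and 0.82. asp-6 was not past the edgeR threshold and was called by DESeq2.

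asp-1 (WBGene00000214), the intestinal protease, had 1735, 1277 and 1114 CPM with the gtr-1 RNAi label, against 1328.5, 743 and 753 CPM with the empty vector. The groups overlapped, because the empty vector library of batch 2 exceeded the libraries labelled gtr-1 RNAi of batches 3 and 4. Within each batch the ratio was above 0 on the log2 scale (0.39, 0.78 and 0.57), and the fitted value was 0.58 ± 0.08 (SE).

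The lysosomal proteases asp-3 and asp-4 had the smallest fold changes of the members. asp-3 (WBGene00000216) had 967, 888 and 838 CPM with the gtr-1 RNAi label, against 777, 783 and 748 CPM with the empty vector, a log2 fold change of 0.22 ± 0.05 (SE) that DESeq2 called and edgeR did not. Its groups did not overlap, and its levels varied least of all members, 1.29-fold over the 6 libraries. asp-4 (WBGene00000217) had 362, 395 and 372 CPM with the gtr-1 RNAi label, against 249, 470.2 and 343 CPM with the empty vector. The spread of asp-4 lay in the empty vector libraries, its pair values were 0.54, -0.25 and 0.12, and its log2 fold change of 0.13 ± 0.15 (SE) turned to -0.07 when the batch 2 pair, or either library of it, was left out.

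asp-13 (WBGene00017881) had 68.8, 54.7 and 58.6 CPM with the gtr-1 RNAi label, against 81.0, 41.4 and 36.5 CPM with the empty vector. The direction depended on the batch, with pair values of -0.24, 0.40 and 0.68 and a fitted log2 fold change of 0.28 ± 0.18 (SE). The fitted value was 0.54 when batch 2, or just 1 of its libraries, was left out, and 0.08 when the same was done for batch 4. asp-8 (WBGene00019105) had 16.3, 5.38 and 2.29 CPM with the gtr-1 RNAi label, against 12.5, 3.31 and 1.68 CPM with the empty vector. Its difference between batches was larger than that between treatments, for which the log2 fold change was 0.51 ± 0.13 (SE). Its lowest count was 80, so its values carry more counting error than those of the other members.

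asp-14 (WBGene00019619) stood apart as the one member with a log2 fold change below 0. It had 21.5, 27.2 and 42.4 CPM with the gtr-1 RNAi label, against 31.8, 75.7 and 69.2 CPM with the empty vector. The groups overlapped across batches, while within each batch the library labelled gtr-1 RNAi was lower, with pair values of -0.56, -1.48 and -0.71. The fitted log2 fold change was -0.92 ± 0.18 (SE), not past the edgeR threshold and not called by DESeq2. It was -0.57 without the batch 3 empty vector library.

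Over the family, every library labelled gtr-1 RNAi exceeded every empty vector library for asp-2, asp-3, asp-5, asp-6 and asp-12, that is 5 of 10 members beside 2.92% of all genes. The reverse held for 0 of 10 members, beside 3.07% of all genes.

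Most intestine markers were also higher with the gtr-1 RNAi label, and so were those of some other tissues. The summed level of 12 intestine genes was 799 to 1202 CPM with the gtr-1 RNAi label and 644 to 1011 CPM with the empty vector. Of the 12, 10 had a log2 fold change above 0, beside 41.6% of all genes. edgeR called 0 of them. Before adjustment, at p under 0.05, edgeR gave 5 higher and 0 lower, beside 4.99% and 5.68% of all genes. DESeq2 called 4 higher, beside 1.57% of all genes. Set against that sum, asp-5 amounted to 82.6, 112 and 120% in libraries with the gtr-1 RNAi label of batches 2, 3 and 4, against 50.2, 68.7 and 73.9% with the empty vector. asp-2 amounted to 28.8, 28.6 and 31.6% with the gtr-1 RNAi label, against 21.5, 23.1 and 23.9% with the empty vector. asp-12 amounted to 1.5, 2.29 and 4.19% with the gtr-1 RNAi label, against 0.882, 1.59 and 2.51% with the empty vector. On this scale each of these genes was higher with the gtr-1 RNAi label in all 3 batches. This largely restates their fold changes, which were known when the genes were chosen, and tests nothing about the intestine. These are the members that edgeR called higher, and the other members were not set against the sum singly. The log2 fold changes of asp-3, asp-4, asp-13 and asp-14, at 0.22, 0.13, 0.28 and -0.92, lay below the intestine list's median of 0.318. Hypodermis markers had sums of 219 to 744 CPM with the gtr-1 RNAi label and 246 to 533 CPM with the empty vector and 5 of 5 tested genes above 0 on the log2 scale (edgeR called 0, with 3 higher and 0 lower before adjustment at p under 0.05, and DESeq2 2 higher). All 4 pharynx muscle genes (median 0.404) and all 3 coelomocyte genes (median 0.166) were above 0 as well. Fewer were above 0 in the remaining lists. These were 1 of 7 body wall muscle, 1 of 7 neuron, 0 of 8 germline and oocyte and 1 of 5 tested sperm genes. The part of RNA from intestine, hypodermis or other tissues in the levels of the members was not tested.

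The members were also compared between batches. Their levels in these libraries were known when they were chosen, so the comparison of batches, with the treatment in the fit, is given as a description too. At an adjusted p under 0.05 in edgeR's F test, 5 of 10 members differed among batches 2, 3 and 4. This is near the 43.3% of all genes that did. asp-8 differed most, with a mean of 14.4, 4.34 and 1.99 CPM in batches 2, 3 and 4, so that batch 2 exceeded batch 4 by 7.26-fold. asp-1 averaged 1532, 1010.2 and 933 CPM and asp-2 averaged 282, 231 and 203 CPM, both highest in batch 2.

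asp-12 and asp-14 went the other way. asp-12 averaged 13.5, 17.52 and 24.8 CPM in batches 2, 3 and 4, so that batch 4 exceeded batch 2 by 1.83-fold. asp-14 averaged 26.7, 51.5 and 55.8 CPM, with batch 4 above batch 2 by 2.06-fold. Of the called members 3 were thus highest in batch 2, beside 18% of all genes, and 2 lowest there, beside 24.8%.

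The members not called were asp-3, asp-4, asp-5, asp-6 and asp-13. asp-5 averaged 750.5, 820 and 718 CPM in batches 2, 3 and 4, and asp-13 averaged 74.9, 48.1 and 47.6 CPM. asp-8 was called in all 12 fits of this comparison and asp-2 in 11. Without the batch 4 library labelled gtr-1 RNAi 2 members were called, beside 3322 of 16227 genes. Without the batch 4 empty vector library 3 were called, beside 4018 of 16264 genes. Without the batch 2 library labelled gtr-1 RNAi 9 were called, beside 7394 of 15673 genes. With no treatment term 1 member was called, beside 6082 genes.

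Tissue markers differed between batches as well. Sums of the intestine list were 1011 to 1202 CPM in batch 2 and 644 to 1003.5 CPM in batches 3 and 4. Those of 4 pharynx muscle genes were 230.2 to 271 CPM in batch 2 and 58.9 to 178 CPM in batches 3 and 4, while those of 8 germline and oocyte genes were 3399.7 to 3757 CPM and 5236 to 5551 CPM. Hypodermis sums were 533 to 744 CPM in batch 2 and 219 to 347 CPM in batches 3 and 4, sperm sums 21.8 to 24.3 and 3.93 to 8.54 CPM, and body wall muscle sums 3824 to 3902 and 2453 to 3635 CPM. None of these 6 lists overlapped between batch 2 and the other batches. The neuron and coelomocyte sums did overlap, at 239 to 242 and 232 to 256 CPM for neurons and 11.4 to 12.2 and 9.21 to 12.97 CPM for coelomocytes. Their part in the batch differences of the asp genes was not tested.

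**Figure D3:**
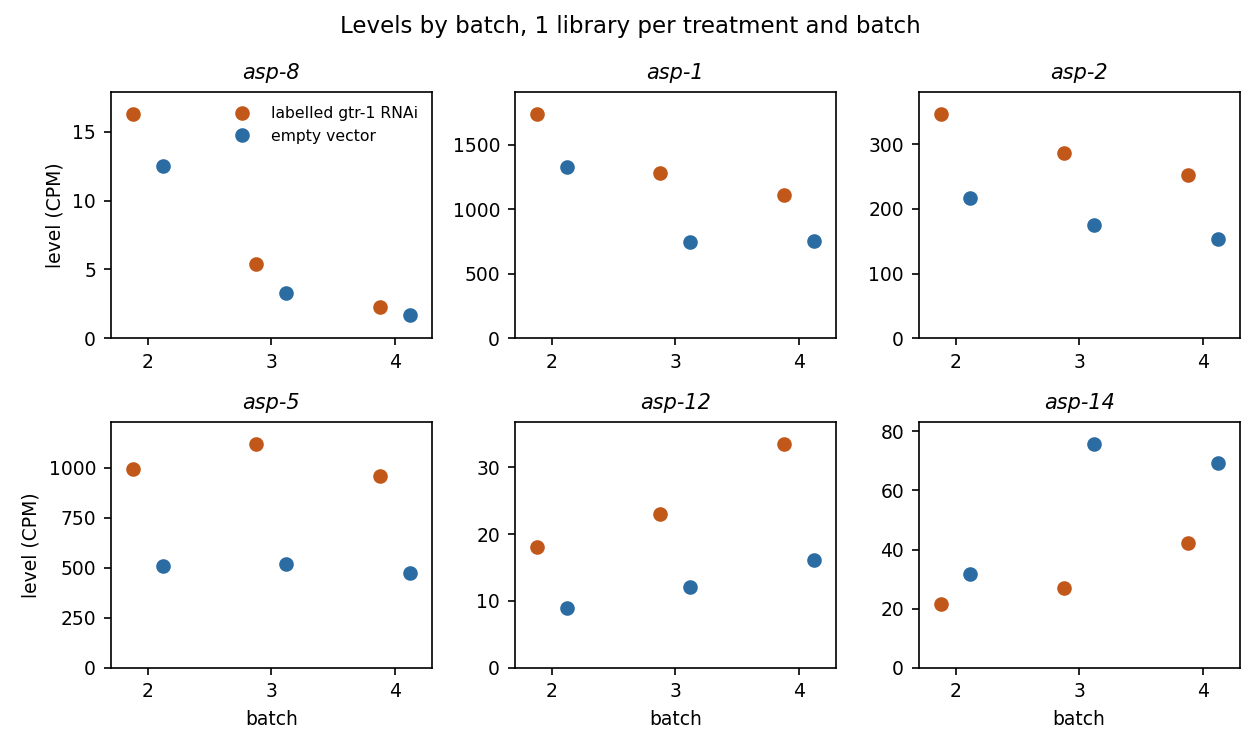
Level (CPM, axes from 0) of 6 asp genes in each batch, the library labelled gtr-1 RNAi on the left and the empty vector library on the right of each batch. asp-8, asp-1 and asp-2 are highest in batch 2, asp-12 and asp-14 lowest there, and asp-5 is near level within each treatment.

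The family is concentrated on chromosome V: 15 of the 19 genes of the name series lie there, with 3 on X and 1 on IV. Of the members, 7 are on V, and asp-3, asp-4 and asp-14 are on X. The members are alike in size, with coding sequences of 1098 to 1332 bases. In WBcel235, asp-6 (V, 8267511 to 8268937, minus strand), asp-12 (V, 8269210 to 8272056, plus strand), asp-5 (V, 8272385 to 8274044, plus strand) and the pseudogene asp-11 (V, 8274353 to 8275757, plus strand) follow each other within 8.25 kb. asp-6 and asp-12 point away from each other with 272 bases between them, and asp-12 ends 328 bases before asp-5.

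Within 20 kb of the midpoint between asp-12 and asp-5 the annotation and the count table share 15 genes, 11 of them outside the family. Of these 11, 3 had enough counts for the test. slc-17.5, of a family of anion transporters, had 331, 263 and 220 counts with the gtr-1 RNAi label, against 216, 153 and 191 counts with the empty vector, and its log2 fold change was 0.35 ± 0.17 (SE; edgeR adjusted p = 0.527). C16D9.1 stood at 0.40 ± 0.24 (adjusted p = 0.594 in edgeR) and C16D9.9 at 0.32 ± 0.50 (adjusted p = 0.826 in edgeR). The 9 genes other than slc-17.5 and C16D9.1 had at most 28 counts in any library. The pseudogene asp-11 had 40, 8 and 14 counts with the gtr-1 RNAi label, against 97, 10 and 13 counts with the empty vector. Its log2 fold change was -0.76 ± 0.37 (SE, edgeR adjusted p = 0.528), and it was lower in all 3 pairs, with a log2 ratio of -0.02 in batch 4.

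**Figure D4:**
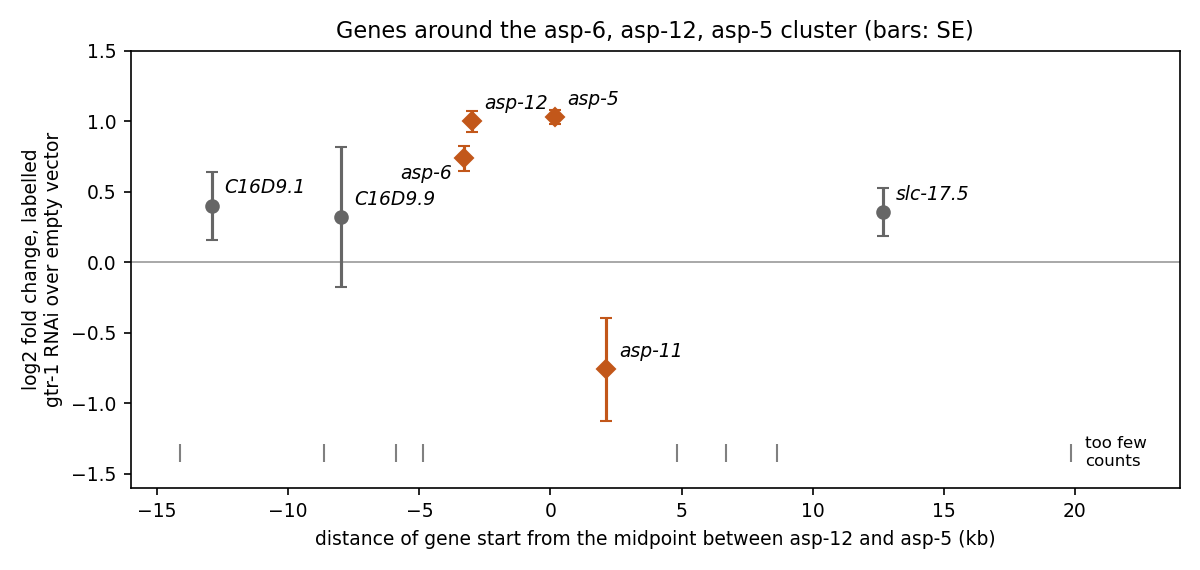
Log2 fold change (labelled gtr-1 RNAi over empty vector, bars SE) of genes by the distance of their start from the midpoint between asp-12 and asp-5, with asp genes in orange, other tested genes in grey and ticks for genes with too few counts. asp-5, asp-12 and asp-6 lie at 1.03, 1.00 and 0.74, the 3 other tested neighbours at 0.32 to 0.40, and the pseudogene asp-11 at -0.76.

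The neighbours asp-5 and asp-12 had similar ratios in both treatments of a batch, and the ratio differed between batches. The likeness between treatments restates their log2 fold changes of 1.03 and 1.00, which were known when the genes were chosen. Per kb, asp-5 over asp-12 was 61.6, 54.7 and 32.1 in libraries with the gtr-1 RNAi label of batches 2, 3 and 4, against 63.9, 48.4 and 33.0 with the empty vector. The ratio of asp-6 over asp-5 behaved otherwise: it was 2.35, 2.21 and 2.20 with the gtr-1 RNAi label, against 3.22, 2.59 and 2.52 with the empty vector. The groups did not overlap, and this too restates fold changes known when the genes were chosen. Reads that fit more than one asp gene could have been split or lost by the counting, and whether this touched asp-12, which has far fewer reads than asp-5, was not tested.

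**Figure D5:**
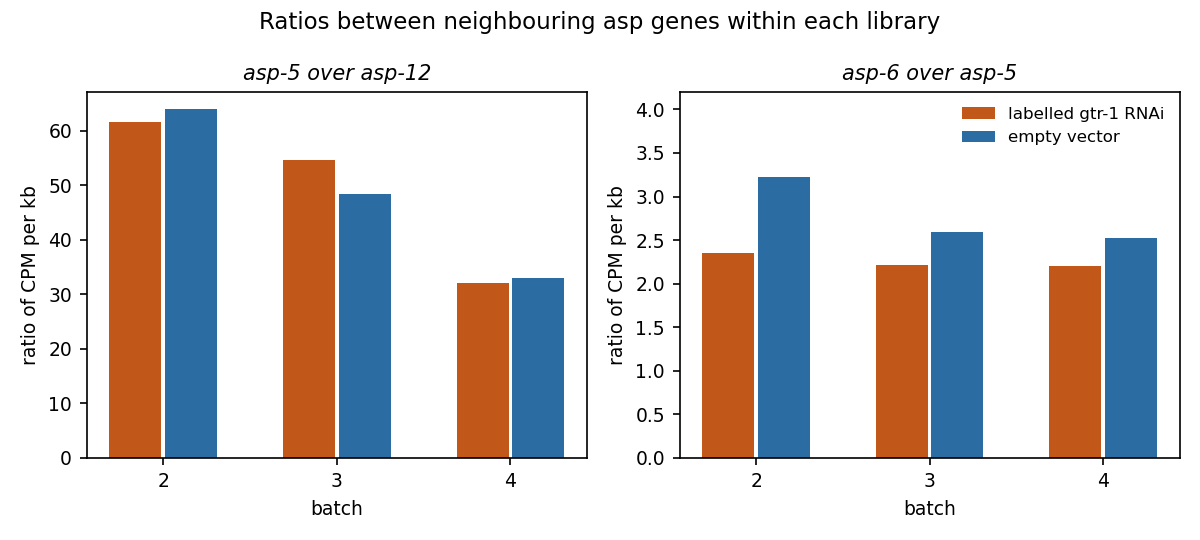
Ratio of levels (CPM per kb, axes from 0) of asp-5 over asp-12 and of asp-6 over asp-5 within each library, by batch, with the library labelled gtr-1 RNAi on the left of each pair. The first ratio is near 62 to 64 in batch 2 and 32 to 33 in batch 4 whatever the treatment. In batch 3 it is 54.7 with the gtr-1 RNAi label and 48.4 with the empty vector. The second is lower with the gtr-1 RNAi label in each batch.

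Genes outside the family with the most similar levels over the 6 libraries were sought among 7577 genes with a mean of 10 CPM or more, by Pearson's r of log2 CPM. For asp-5 they were C14C6.5 (r = 0.987), the lipid-binding protein gene lbp-2 (0.982), ZK1320.2 (0.975), the chromatin remodeller gene chd-3 (0.972) and F43H9.4 (0.970). For asp-12 they were K09H9.7 (r = 0.973), the mitochondrial thioredoxin reductase gene trxr-2 (0.958), F08F8.7 (0.956), B0001.5 (0.955) and Y59C2A.3 (0.945). The libraries share the treatment and batch split, so these values are a description. The log2 fold changes between treatments were 0.21 to 2.04 among the first set and 0.06 to 0.69 among the second.

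Other genes of the name series were mostly at low levels. hrg-7, a secreted aspartyl protease-like protein of the intestine that signals heme status to neurons, had 1010.8, 983 and 626 CPM with the gtr-1 RNAi label, against 442, 424 and 349 CPM with the empty vector. Its groups did not overlap (log2 fold change 1.08 ± 0.08, SE, edgeR adjusted p = 0.0480). asp-16 had 87, 139 and 181 counts with the gtr-1 RNAi label, against 21, 12 and 28 counts with the empty vector, with no overlap. Its fitted log2 value of 2.55 ± 0.28 missed the edgeR threshold (adjusted p = 0.0762) and passed that of DESeq2. asp-17, known as a gene induced by cold through the factor ZIP-10, lies 1707 bases from asp-16. It had 1145, 1581 and 1463 counts with the gtr-1 RNAi label, against 805, 2200 and 2570 counts with the empty vector, so its direction differed between batch 2 and the other batches (log2 fold change -0.46 ± 0.31, SE, edgeR adjusted p = 0.627). asp-7, asp-9, asp-15, asp-18 and asp-19 had at most 16 counts in a library and were not tested.

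Other proteases and lysosome genes were described by lists drawn up by name with earlier results known. Over all genes edgeR called 0.0902% higher and 0% lower. Before adjustment, at p under 0.05, the shares were 4.99% and 5.68%, and DESeq2 called 1.57% and 0.625%. These shares stand beside the counts of each list below. Of 13 cysteine cathepsin genes, edgeR called 1 higher, F32H5.1 (log2 fold change 0.71 ± 0.05, SE, edgeR adjusted p = 0.0370), and 0 lower (9 higher and 1 lower before adjustment, at p under 0.05; DESeq2 6 higher and 1 lower). Their median log2 fold change was 0.40. The cathepsin B-like genes cpr-8 and cpr-5 were at 0.72 ± 0.07 and 0.66 ± 0.08 and cpr-3 at -0.82 ± 0.10 (SE), with edgeR adjusted p of 0.0745, 0.0762 and 0.0762.

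Among 33 lysosome membrane, enzyme and regulator genes edgeR called 0 (4 higher and 6 lower before adjustment, at p under 0.05; DESeq2 2 higher and 1 lower), and the median was -0.01. The acid sphingomyelinase gene asm-3 was at -0.96 ± 0.12, the acid ceramidase gene asah-1 at 0.70 ± 0.11, the lysosomal lipase gene lipl-4 at -1.12 ± 0.22 and the glucocerebrosidase gene gba-1 at 0.37 ± 0.08 (log2 fold change, SE).

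Of 8 genes of the calpain and necrosis pathway in which asp-3 and asp-4 act, edgeR called 0 (2 higher and 0 lower before adjustment, at p under 0.05) and DESeq2 0. Their median log2 fold change was 0.00184, and the proton pump subunit genes vha-12 and vha-1 were at 0.18 ± 0.06 and 0.14 ± 0.04, the calcium channel gene itr-1 at 0.18 ± 0.07 and the calreticulin gene crt-1 at -0.11 ± 0.05 (SE).

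Of 13 peptide uptake and peptidase genes edgeR called 0 (5 higher and 1 lower before adjustment, at p under 0.05) and DESeq2 2 higher, with a median of 0.15. The prolyl carboxypeptidase-like genes pcp-2 and pcp-5 were at 0.52 ± 0.07 and 0.37 ± 0.06, pes-9 at 0.16 ± 0.04 and the neprilysin gene nep-1 at 0.15 ± 0.05 (log2 fold change, SE). Listed by name under protease inhibitors were 3 genes: the cystatin genes cpi-1 and cpi-2, and aip-1, which is not shown here to be an inhibitor. edgeR called 0 of them (0 higher and 1 lower before adjustment, at p under 0.05) and DESeq2 0. The cystatin gene cpi-1 was at -0.42 ± 0.15, with pair values of 0.04, -0.78 and -0.51, cpi-2 at -0.07 ± 0.05 and aip-1 at -0.04 ± 0.06 (log2 fold change, SE).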

How the data were processed

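The deposited table holds counts per gene for 6 libraries, the authors' normalized signal (counts over 1 size factor per library, largest relative deviation 1.96e-14) and batch-corrected values, of another kind, deposited by the authors, of which 43 lie below 0. Only the counts were used in tests; 24518 of 46934 rows hold none. The build WBcel235 and the tools TopHat2 2.1.1, cutadapt 2.10, HTSeq 2.01 and DESeq2 1.36.0 come from the submitters' processing notes; whether the counting used the strand remains not given in the sources used here. Per the labels, libraries were stranded poly(A) libraries (KAPA).

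Groups and batches came from the labels. edgeR 4.0.16 in R 4.3.3 was run on all genes: filterByExpr with a minimum count of 10 (15519 genes), TMM scaling, and the quasi-likelihood test with batch as a block (2 residual and 3.16 prior degrees of freedom), Benjamini-Hochberg adjusted and called under 0.05. Pair values are differences of log2 CPM with a prior count of 2. Batches were compared by the F test of the same fit, with treatment as a term. DESeq2 1.42.0 was an alternative. Each SE was obtained by dividing the fold change (log2) by the root of its F. Batch labels give the pairing; across genes, deviations from group means correlated at r = 0.71, 0.47 and 0.66 within batches 2, 3 and 4, and at -0.71 to 0.52 between them. Between libraries of 1 group the chi-square per degree of freedom was 23.4 to 145, so none was a copy. Exon lengths, overlaps and positions came from the Ensembl annotation of WBcel235, release 115, with 22406 of 22416 counted genes found. The fits were tested on simulated counts.

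Members and lists were chosen with earlier results of these data known. Named genes are all members, the rest of the name series, gtr-1, genes within 20 kb of the midpoint between asp-12 and asp-5, genes overlapping a member, the 5 genes most like asp-5 and the 5 most like asp-12, and up to 4 genes with the smallest p of each protease or lysosome list. Alternatives were no block, no filter or a minimum of 50, the DESeq2 test, scaling by DESeq2 size factors, no treatment term, other denominators and lengths, and leaving out each pair and library.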

Additional observations from a re-analysis of the deposited data

How the results depend on the processing

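The calls between treatments changed with the pairing by batch and with other settings. Without the replicate block edgeR called 1 gene in all and 0 of the asp members, against 14 genes and 3 members with it. Before adjustment, at p under 0.05, the fit without the block gave 4 members higher and 1 lower, beside 231 genes higher and 157 lower. With no filter 165 genes and 5 members were called, with a minimum count of 50 there were 6 genes and 2 members (asp-2 and asp-5), with DESeq2 size factors 201 genes and 6 members, and with the DESeq2 test 341 genes and 6 members. Leaving out a pair or a library gave 0 to 1165 genes and 0 to 8 members. The fits with 0 calls, those without batch 4 libraries, still had 7 members higher and 1 lower before adjustment, at p under 0.05. Of all genes, 493 to 498 were higher and 355 to 372 lower there. The causes were not tested, and the fits that left out libraries also had fewer of them. Their prior degrees of freedom differed as well. These were 6.54, 15.7 and 3.00 without the pair of batch 2, 3 and 4, against 3.16 with all libraries. The median log2 fold change of the members stayed between 0.44 and 0.63 in all 14 alternatives. Of 140 single values of members, 134 kept their sign and moved by less than 1 SD of the pairs, 3 moved further and 3 reversed. All 3 reversals were of asp-4, without the batch 2 pair or either library of it, fits that rest on much the same pairs. Dropping 1 of 3 pairs can hardly move their mean by 1 SD of those pairs. The rule thus nearly fixed the count for fits that left out libraries, and the count does not measure stability. asp-4 ran from -0.0686 to 0.391 over the fits that left out libraries. asp-13 kept its sign but ran from 0.0782 to 0.544 over those fits.

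Between batches, 3322 to 7537 genes and 2 to 9 members were called with 1 library left out, against 6721 and 5. With no treatment term 6082 genes and 1 member were called. The difference in the family's share of counts was 0.205 percentage points, 0.241 when vitellogenin counts were left out of the total, and 0.150 to 0.255 with libraries left out. With coding length in place of exon length 8 of 10 members kept their place in the order of levels, asp-3 and asp-5 changing places. Depth limited asp-8 and the low genes of the name series most.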

Other observations

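asp-1 and asp-14 ranked the libraries in nearly opposite order. They were picked as the members with the lowest Pearson's r of log2 CPM, at -0.984. asp-14 was also opposed to asp-2, asp-6, asp-13, asp-3, asp-8 and asp-5 (r = -0.922 to -0.705). Its r was -0.182 with asp-12 and 0.359 with asp-4. These values restate the differences between treatments and batches given above. asp-1 was highest in the batch 2 library labelled gtr-1 RNAi, at 1735 CPM, where asp-14 was lowest, at 21.5 CPM. asp-14 was highest in the batch 3 empty vector library, at 75.7 CPM, where asp-1 was lowest, at 743 CPM. For the lysosomal proteases, asp-4 over asp-3 per kb was 0.375, 0.445 and 0.445 with the gtr-1 RNAi label in batches 2, 3 and 4. With the empty vector it was 0.321, 0.602 and 0.460. The empty vector values spread more widely, with the highest in the batch 3 library, and the difference in spread between groups of 3 libraries was not tested.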
